A study of Homo sapiens with 11 samples.

Results

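The histone deacetylases HDAC1 to HDAC10 were followed in 2 human cancer cell lines transfected with a mimic of the microRNA miR-365a-3p or with a control miRNA. The members were the table rows named HDAC1 to HDAC10, 10 of the 31325 rows measured on each array. Class I was represented by HDAC1, HDAC2, HDAC3 and HDAC8, class IIa by HDAC4, HDAC5, HDAC7 and HDAC9, and class IIb by HDAC6 and HDAC10. mRNA was measured on 11 Illumina HumanHT-12 v4 BeadChip arrays, each hybridized with biotinylated cRNA from total RNA of 1 sample. MDA-MB-231, an established basal-like breast cancer line, gave 3 arrays with miR-365a-3p and 3 with the control miRNA. SKOV3, an established ovarian cancer line, gave 3 arrays with miR-365a-3p and 2 with the control miRNA, and the study's methods call the cells used SKOV3.ip1, a derivative of SKOV3. The sample labels give 48 h of treatment for miR-365a-3p and 48 without a unit for the controls, whereas the series description gives 24 h.

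Histone deacetylases remove acetyl groups from lysines of histone tails and other proteins, and deacetylated chromatin is in general less open to transcription. The class I enzymes are mostly nuclear, with HDAC1 and HDAC2 as the closely related catalytic pair of the SIN3, NuRD and CoREST corepressor complexes and HDAC3 as the enzyme of the NCoR complex. The class IIa proteins have little catalytic activity of their own, bind MEF2 transcription factors and HDAC3-NCoR, and leave the nucleus bound to 14-3-3 proteins once kinases such as CaMK, PKD and SIK have phosphorylated them. HDAC6 of class IIb deacetylates tubulin in the cytoplasm, and HDAC10 acts on acetylated polyamines. A microRNA can lower the level or the translation of mRNAs that pair with its seed. HDAC4 is a reported target of miR-365, which was the reason to set it against its relatives.

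The transfected mimic is shown because its seed defines which transcripts it can pair with. The sequence is that of the mature human miRNA in RefSeq (GRCh38.p14, plus strand, chr16:14309340-14309361), and the capitals mark the seed at bases 2 to 8.
hsa-miR-365a-3p: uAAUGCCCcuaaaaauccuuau
The library sequence the study lists for its mimic was identical to it. Of the 2370 mature human miRNAs compared, 2 carry this seed, namely miR-365a-3p and miR-365b-3p, whose 22 bases are the same and which lies on chromosome 17 (31575478 to 31575499, plus strand). An mRNA site for the seed reads GGGCAUU. Transcript sequences were not used here, so which deacetylase mRNAs hold such a site was not examined.

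The values are log2 signals, quantile normalized across the 11 arrays, with 1 row per gene symbol. Dim rows crowd near the bottom of the scale, and a row was taken to lie in this floor band when its mean was at or below 7.45, the 60th percentile of all row means. A change within the band may be understated, and levels of different genes were not compared because each row has its own probe. Of the 10 members, HDAC1, HDAC2, HDAC3, HDAC4, HDAC6 and HDAC8 (6) lay above the band by their mean over all arrays, and HDAC5, HDAC7, HDAC9 and HDAC10 lay within it. The labels of the lines were borne out by ERBB2 (3.26 higher on the log2 scale in SKOV3 controls), EPCAM (2.73 higher) and PAX8 (0.78 higher). CDH1 was only 0.15 higher in SKOV3 with a mean of 7.43, within the band, and VIM did not pass the test between the lines (log2 difference −0.092, adjusted p = 0.931). Nothing in the labels states that replicates came from separate cultures, so p-values measure the spread between these samples, which may be technical. The number of arrays limits the precision.

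HDAC4 fell with miR-365a-3p in both cell lines, HDAC2 rose in both, and HDAC1 fell in MDA-MB-231 cells (limma, Benjamini-Hochberg adjusted over all rows, threshold 0.05). Among the class IIa relatives of HDAC4, HDAC7 fell in SKOV3 cells by a small amount, and HDAC5 and HDAC9 passed the test in neither line. In MDA-MB-231 cells 2 of the 10 members fell (HDAC1 and HDAC4), where 11.7% of all rows fell, and 1 rose (HDAC2), where 14.4% of all rows rose. In SKOV3 cells 2 of 10 fell (HDAC4 and HDAC7) against 7.11% of all rows, and 1 rose (HDAC2) against 7.25%. In both lines, 1 member fell (HDAC4; 5.39% of all rows) and 1 rose (HDAC2; 5.76%). Counts of this size are near the background, so the results below concern the named genes and not the family as a set.

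Rows above the floor band were called more often than rows in general. Of the 6 members above the band, 2 fell in MDA-MB-231 cells, where 25.1% of the 12530 rows above the band fell, and 1 rose, where 33.2% rose. In SKOV3 cells 1 of the 6 fell against 15.4%, and 1 rose against 17.4%. HDAC4 counts among the 6 through its control arrays alone, its treated means being in the band, so nothing is read from these counts.

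**Figure D1:**
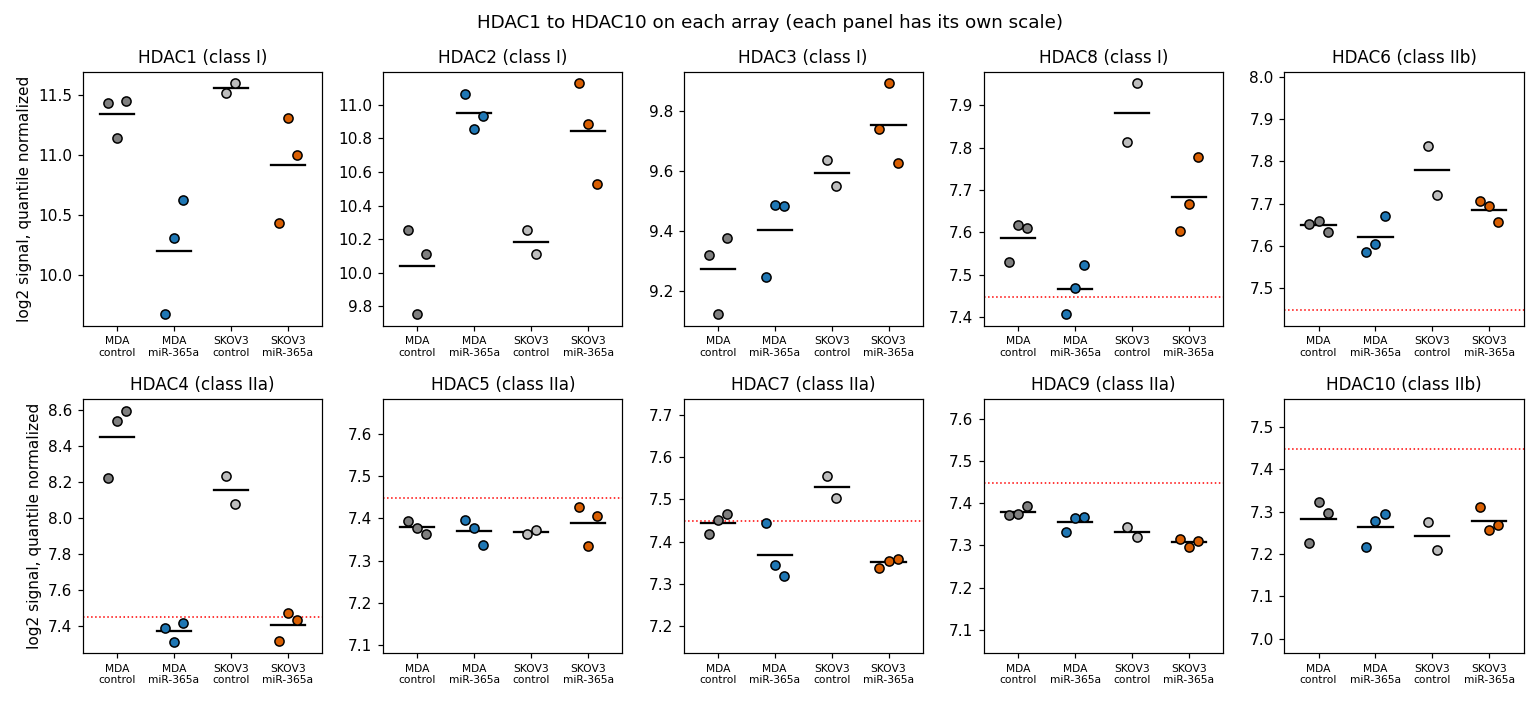
Log2 signal (vertical axis, quantile normalized, a separate scale in each panel) of the 10 deacetylases on each of the 11 arrays, grouped by cell line and treatment on the horizontal axis. Points are arrays, black bars are group means, and the red dotted line at 7.45 is the upper edge of the floor band. HDAC4 lies between 8.08 and 8.60 on every control array and between 7.31 and 7.47 on every miR-365a-3p array.

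HDAC4, a class IIa corepressor of MEF2 factors, was measured well above the floor band in the controls. In MDA-MB-231 cells the controls read 8.22, 8.54 and 8.60 and the miR-365a-3p arrays 7.39, 7.31 and 7.42. In SKOV3 cells the controls read 8.24 and 8.08 and the miR-365a-3p arrays 7.32, 7.47 and 7.44. Every treated array lay below every control array in both lines. The mean went from 8.45 ± 0.202 (SD, n = 3) to 7.37 ± 0.0529 (n = 3) in MDA-MB-231 cells, which is a log2 change of −1.08 (SE 0.0948, adjusted p = 9.16e-05), or 2.11-fold lower. In SKOV3 cells it went from 8.16 ± 0.113 (n = 2) to 7.41 ± 0.0814 (n = 3), which is a log2 change of −0.75 (SE 0.106, adjusted p = 0.00208), or 1.68-fold lower. The exact permutation test of treatment within lines gave p = 0.005, two-sided, the smallest its 200 arrangements allow. Both treated means were in the floor band, so the remaining level of HDAC4 was not resolved and the fold may be understated. On arrays of total RNA, less HDAC4 mRNA in each cell and its loss from a share of the cells cannot be told apart.

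The other class IIa genes lay at the edge of the floor band or inside it. HDAC7, a class IIa gene best known from blood vessel and T cell biology, read 7.55 and 7.50 on the SKOV3 controls and 7.34, 7.36 and 7.36 with miR-365a-3p, with no overlap. Its log2 fold change was −0.18 in SKOV3 cells (SE 0.0369, adjusted p = 0.0130) and the call was lost without either control array (adjusted p = 0.123 without replicate 1 and 0.0550 without replicate 2). In MDA-MB-231 cells the groups overlapped at 7.42, 7.45 and 7.47 against 7.44, 7.35 and 7.32, and the log2 fold change of −0.076 did not pass the test (adjusted p = 0.146). Over both lines the exact permutation test gave p = 0.01 for HDAC7. The table also holds a row under HDAC7A, an older symbol of HDAC7. That row gave log2 fold changes of −0.086 (adjusted p = 0.187) and −0.15 (adjusted p = 0.0571), of the same sign, with no call in either line.

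HDAC5, a close relative of HDAC4 with the same binding partners, read 7.34 to 7.43 on all 11 arrays and its groups overlapped in both lines. Its log2 fold changes were −0.0088 in MDA-MB-231 cells (95% interval −0.0709 to 0.0532) and 0.021 in SKOV3 cells (−0.048 to 0.0908). HDAC9, known as a regulator of muscle and regulatory T cells, read 7.37 to 7.39 on MDA-MB-231 controls and 7.33 to 7.37 with miR-365a-3p. In SKOV3 cells it read 7.32 to 7.34 in controls and 7.30 to 7.32 with miR-365a-3p. Its groups did not overlap in either line and the exact permutation test gave p = 0.005, yet the shift was only −0.025 and −0.023 on the log2 scale and passed the limma test in neither line (adjusted p = 0.427 and 0.612). All of these HDAC9 values lie within the floor band, where HDAC5 lies as well.

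HDAC1, 1 of the 2 enzymes of the SIN3, NuRD and CoREST complexes, was lower with miR-365a-3p in both lines and passed the test in MDA-MB-231 cells. The MDA-MB-231 controls read 11.43, 11.14 and 11.45 and the miR-365a-3p arrays 9.67, 10.31 and 10.63. The SKOV3 controls read 11.51 and 11.60 and the miR-365a-3p arrays 10.44, 11.31 and 10.998. The groups did not overlap in either line, but the treated arrays spread more widely than the controls, with an SD of 0.487 against 0.173 in MDA-MB-231 cells and 0.443 against 0.0587 in SKOV3 cells. The log2 fold change was −1.14 (SE 0.269, adjusted p = 0.0129) in MDA-MB-231 cells and −0.64 (SE 0.301, adjusted p = 0.239) in SKOV3 cells. Over both lines the exact permutation test gave p = 0.01.

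HDAC2, the partner enzyme of HDAC1, moved the opposite way. In MDA-MB-231 cells it read 10.25, 9.75 and 10.11 in the controls and 11.06, 10.85 and 10.93 with miR-365a-3p. In SKOV3 cells it read 10.25 and 10.11 in the controls and 11.13, 10.88 and 10.53 with miR-365a-3p. It was the only one of the 10 members with every treated array above every control array in both lines. The log2 fold change was 0.91 (SE 0.164, adjusted p = 0.00350), or 1.88-fold higher, in MDA-MB-231 cells and 0.66 (SE 0.184, adjusted p = 0.0444), or 1.58-fold higher, in SKOV3 cells. The exact permutation test gave p = 0.01. The SKOV3 call rests on few arrays and was lost without either control (adjusted p = 0.140 and 0.264), without miR-365a-3p replicate 1 or 2 (0.105 and 0.0866), with cyclic loess (0.0907) and when SKOV3 was fitted alone (0.126). Left out singly, 8 of the 11 arrays ended it.

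On each array the difference HDAC2 minus HDAC1 was taken, so that a shift common to both genes cancels. This pair was chosen after its values were seen, and the difference is given as a description. It was −1.18, −1.39 and −1.34 on the MDA-MB-231 controls and 1.39, 0.55 and 0.30 with miR-365a-3p. In SKOV3 cells it was −1.26 and −1.49 in the controls and 0.69, −0.43 and −0.47 with miR-365a-3p. All treated arrays lay above all controls in both lines, and the size of the shift varied among the treated arrays.

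**Figure D2:**
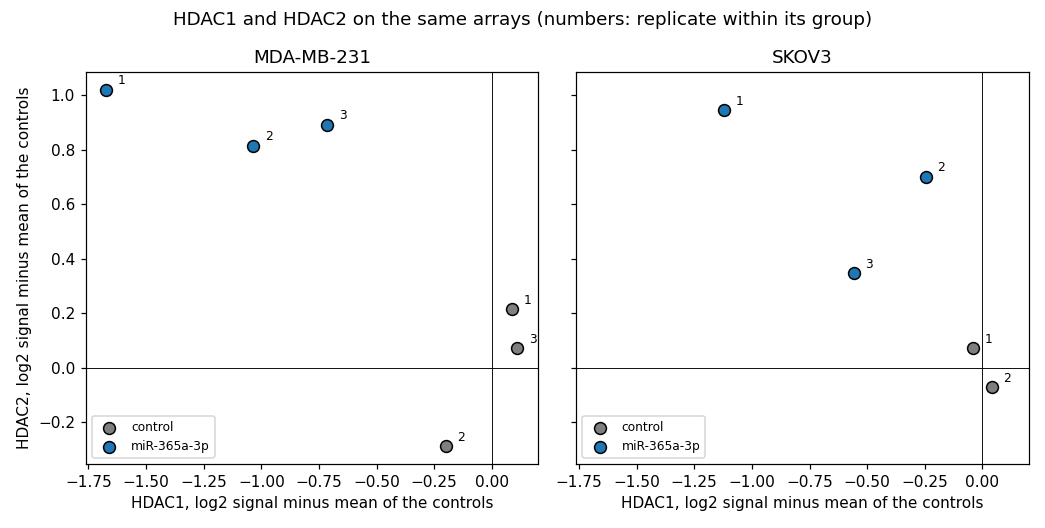
Change of HDAC1 (horizontal axis) and HDAC2 (vertical axis) on each array, as log2 signal minus the mean of the control arrays of the same line, for MDA-MB-231 (left) and SKOV3 (right). Points are arrays and the numbers are replicate numbers within a group, which were not taken to pair arrays between groups. All 6 treated arrays lie to the left of and above the controls of their line, with replicate 1 the farthest to the left in both.

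The miR-365a-3p array numbered 1 had the lowest HDAC1 and the highest HDAC2 of its group in both lines. The same arrays also had the lowest 75th percentile of the deposited log2 values, 7.56 against 7.65 and 7.65 in MDA-MB-231 cells and 7.67 against 7.74 and 7.80 in SKOV3 cells, where the controls ran from 7.86 to 8.04. Without the MDA-MB-231 array, the log2 fold change of HDAC1 there was −0.86 (adjusted p = 0.0342) and that of HDAC2 was 0.84 (adjusted p = 0.0156). Without the SKOV3 array they were −0.40 (adjusted p = 0.503) and 0.52 (adjusted p = 0.105) in SKOV3 cells.

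HDAC3, the enzyme of the NCoR complex through which class IIa proteins act, did not pass the test in either line. It read 9.32, 9.12 and 9.38 against 9.24, 9.49 and 9.48 in MDA-MB-231 cells, and 9.64 and 9.55 against 9.74, 9.89 and 9.63 in SKOV3 cells, with overlap in both. Its log2 fold changes were 0.13 (95% interval −0.0851 to 0.349) and 0.16 (−0.0823 to 0.403), so that a fall as large as that of HDAC4 lay outside both intervals. With the deposited values the MDA-MB-231 value turned to −0.12 (adjusted p = 0.555).

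HDAC8, a class I enzyme that acts outside the large corepressor complexes and deacetylates cohesin, was lower on every treated array than on every control in both lines but passed the limma test in neither. It read 7.53, 7.62 and 7.61 against 7.41, 7.47 and 7.52 in MDA-MB-231 cells, and 7.81 and 7.95 against 7.60, 7.67 and 7.78 in SKOV3 cells. The log2 fold changes were −0.12 (adjusted p = 0.165) and −0.20 (adjusted p = 0.0656), and the exact permutation test over both lines gave p = 0.015. With cyclic loess HDAC8 passed the limma test in SKOV3 cells (−0.24, adjusted p = 0.0157) and not in MDA-MB-231 cells (−0.021, adjusted p = 0.847). It also passed in SKOV3 cells without miR-365a-3p replicate 3 (adjusted p = 0.0302) and with only rows above the median (0.0479).

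The class IIb genes showed still smaller differences. HDAC6 read 7.65, 7.66 and 7.63 against 7.59, 7.61 and 7.67 in MDA-MB-231 cells, and 7.84 and 7.72 against 7.71, 7.69 and 7.66 in SKOV3 cells. The groups overlapped in MDA-MB-231 cells and not in SKOV3 cells, with log2 fold changes of −0.028 (adjusted p = 0.682) and −0.093 (adjusted p = 0.164), and the exact permutation test over both lines gave p = 0.04. HDAC10 read 7.21 to 7.32 on all 11 arrays, deep in the floor band, with log2 fold changes of −0.019 and 0.036 and overlap in both lines. By the same exact permutation test p was 0.085 for HDAC3, 0.76 for HDAC5 and 0.73 for HDAC10.

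Over the 10 members, HDAC1, HDAC4, HDAC8 and HDAC9 (4) had every treated array below every control array in both lines, where 10.3% of all rows did. HDAC2 (1) had every treated array above every control array in both, where 13.3% of all rows did.

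The calls of HDAC6 and HDAC8 in both lines, and of HDAC7 in MDA-MB-231 cells, differed between quantile normalized and deposited values. With the deposited values and no further normalization, 5 members fell in MDA-MB-231 cells (HDAC1, HDAC4, HDAC6, HDAC7 and HDAC8), where 17.9% of all rows fell. In SKOV3 cells 4 fell (HDAC4, HDAC6, HDAC7 and HDAC8) against 14% of all rows. HDAC2 was the 1 member that rose in each line, against 7.26% of all rows in MDA-MB-231 and 3.83% in SKOV3 cells. Every treated array lay below every control in both lines for 6 members (HDAC1, HDAC4, HDAC6, HDAC7, HDAC8 and HDAC9), against 18.6% of all rows. On this scale HDAC6 gave −0.23 (adjusted p = 0.00886) and −0.35 (adjusted p = 0.00256), HDAC8 −0.24 (0.0266) and −0.46 (0.00281), and HDAC7 −0.13 (0.0247) and −0.30 (0.000902). HDAC4 gave −1.23 (adjusted p = 0.000104) and −1.01 (adjusted p = 0.000805), HDAC1 −1.18 (0.0155) and −0.58 (0.307), and HDAC2 0.89 (0.00370) and 0.65 (0.0386). The called share that fell was 44.8% of called rows in MDA-MB-231 and 49.5% in SKOV3 cells after quantile normalization, and 71.2% and 78.6% in the deposited values, whose upper quartile was lower on every treated array.

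**Figure D3:**
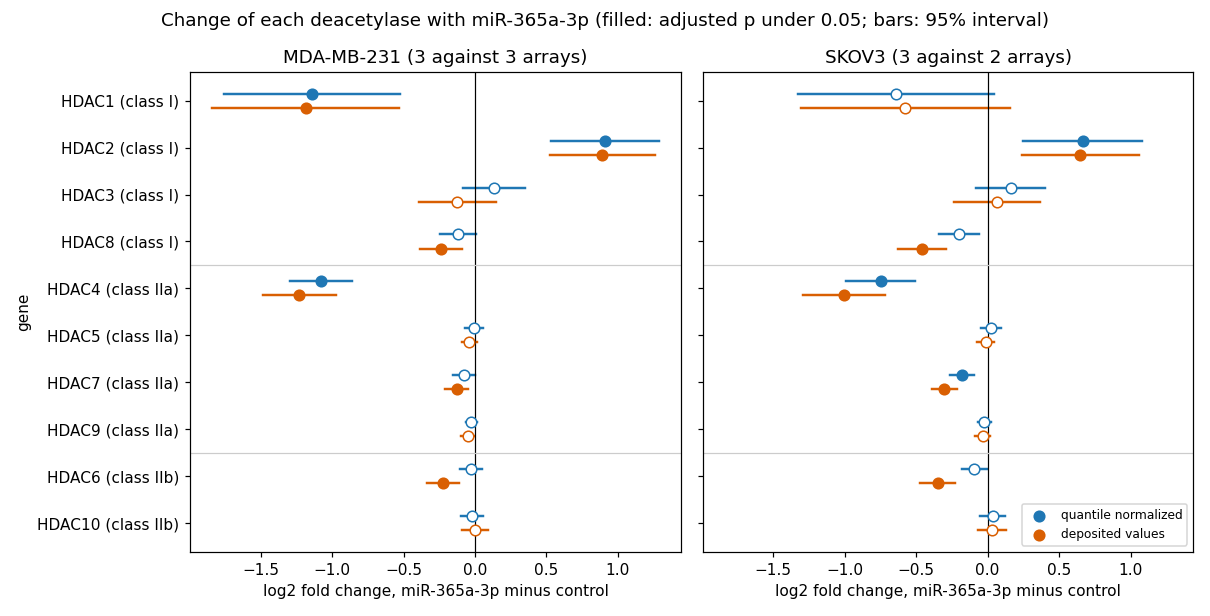
Log2 fold change of each deacetylase, miR-365a-3p minus control (horizontal axis), in MDA-MB-231 (left) and SKOV3 (right), after quantile normalization (blue) and in the deposited values (orange). Filled points have an adjusted p under 0.05, open points do not, bars are 95% intervals of the limma fit, and grey lines part the classes. HDAC4 and HDAC2 are filled in all 4 fits, while HDAC6 and HDAC8 are filled only in the deposited values.

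To ask whether HDAC4 changed unequally to each relative, its value minus that of each of the other 9 members was taken on every array. The change in this within-array difference was tested by exact permutation of treatment within lines, and all 9 pairs share the values of HDAC4. The difference fell in both lines against 8 of the 9 relatives. Each of these pairs had an exact permutation p of 0.005, and p = 0.00563 after Benjamini-Hochberg adjustment over the 9 pairs. The exception was HDAC1, against which the log2 change was 0.062 in MDA-MB-231 and −0.11 in SKOV3 cells (mean −0.022, p = 0.93, exact permutation test, adjusted p = 0.93).

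Against its class IIa relatives the mean change of both lines was −0.92 for HDAC5, −0.89 for HDAC9 and −0.79 for HDAC7, on the log2 scale. The difference HDAC4 minus HDAC5 ran from 0.83 to 1.23 on MDA-MB-231 controls and from −0.063 to 0.080 with miR-365a-3p, and from 0.70 to 0.87 and −0.11 to 0.14 in SKOV3 cells. None of the 3 pairs overlapped between treated and control arrays in either line. Among class I relatives the mean change was −1.70 for HDAC2, −1.06 for HDAC3 and −0.75 for HDAC8, and among class IIb relatives it was −0.85 for HDAC6 and −0.92 for HDAC10. Relatives in the floor band have little room to fall, and a pair with any of them carries little beyond the fall of HDAC4 itself. HDAC6 and HDAC8 lay little above the band in MDA-MB-231 and SKOV3 controls (means 7.65 and 7.78, and 7.59 and 7.88). Their room to fall was limited as well. The differences against HDAC2 and HDAC3, which lie well above the band, do not have this limit. The difference against HDAC2 also holds the rise of HDAC2 itself (log2 fold changes 0.91 in MDA-MB-231 and 0.66 in SKOV3 cells). HDAC3 did not fall either (0.13 and 0.16, with no call). The same 8 pairs passed with the deposited values.

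**Figure D4:**
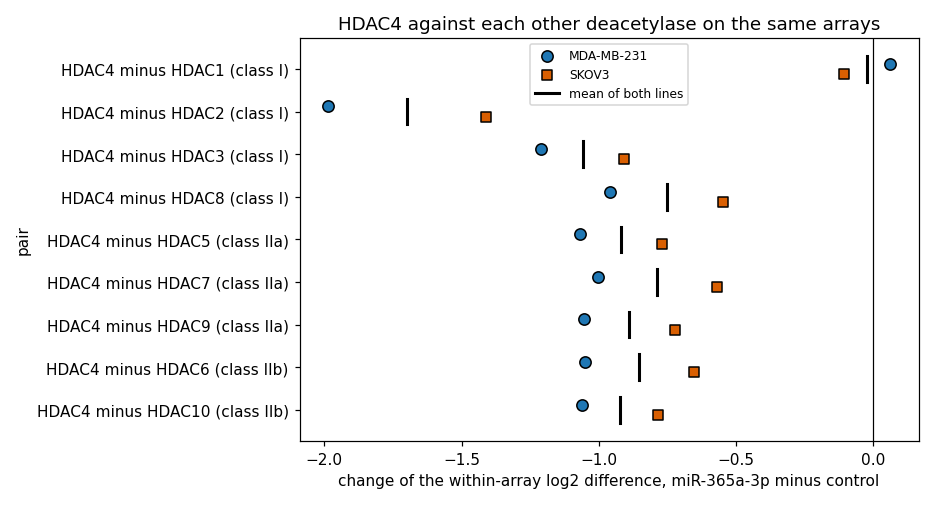
Change with miR-365a-3p in the within-array log2 difference of HDAC4 minus each other deacetylase (horizontal axis, miR-365a-3p minus control) for the 9 pairs (vertical axis). Circles are MDA-MB-231, squares SKOV3, and black bars the mean of both lines. Against HDAC1 the points straddle 0 (0.062 and −0.11), and against the other 8 relatives both lines lie below 0.

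The responses of the members were then compared between the cell lines. None of the 10 passed the interaction test of limma (0 of 10, against 2.54% of all rows), and 1 of 10, HDAC4, had an unadjusted p under 0.05, as 12.8% of all rows did. The fall of HDAC4 was 0.33 smaller in SKOV3 than in MDA-MB-231 cells on the log2 scale (limma, adjusted p = 0.376). In the deposited values this difference of responses was 0.22 (adjusted p = 0.681). Both treated HDAC4 means (7.37 and 7.41) were in the floor band. Its SKOV3 controls read lower, without passing the test (log2 difference −0.30, adjusted p = 0.109, and −0.18, adjusted p = 0.408, in the deposited values). A smaller response and a lower start above the floor therefore cannot be told apart. For HDAC1 the difference of responses, SKOV3 minus MDA-MB-231, was 0.50 (95% interval −0.42 to 1.42), and for HDAC2 it was −0.25 (−0.81 to 0.32). These intervals are wide, and differences of a size like the responses themselves lie within the interval of HDAC1. Without MDA-MB-231 control replicate 1, the HDAC4 difference was 0.45 and passed the test (adjusted p = 0.0483), under the same floor limit.

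Between the control arrays of the lines, HDAC8 was higher in SKOV3 by 0.30 on the log2 scale (SE 0.0613, adjusted p = 0.0100), 1 of 10 members where 8.34% of all rows were higher, and no member (0 of 10) was lower, where 7.76% of all rows were. The HDAC8 call was lost without SKOV3 control replicate 2 (0.22, adjusted p = 0.107). HDAC6 was 0.13 higher (adjusted p = 0.0507), HDAC3 0.32 higher (0.0843) and HDAC4 0.30 lower in SKOV3 (log2 difference −0.30, adjusted p = 0.109), none of which passed. By an unadjusted p under 0.05, 3 members were higher in SKOV3 controls (HDAC3, HDAC6 and HDAC8), as were 12.3% of all rows, and 2 were lower (HDAC4 and HDAC9), as were 12.2%. This comparison uses the same control arrays as the treatment comparisons, and cell line and array run cannot be told apart in it.

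As a description, the likeness to HDAC4 over the 11 arrays was measured by Pearson's r for the 12529 other genes above the floor band. All these points share the split between treated and control arrays, so a high r follows for any gene with an even response. The 5 genes most like HDAC4 were ZNF827 (r = 0.996), FBXL18 (0.994), POM121C (0.993), ZNF142 (0.993) and DPP9 (0.992). All 5 fell in both lines, DPP9, a dipeptidyl peptidase, with log2 fold changes of −1.22 and −0.75, and POM121C, a nuclear pore protein, with log2 fold changes of −1.93 and −1.56. Among the other members, r with HDAC4 was 0.71 for HDAC1, 0.74 for HDAC7, 0.57 for HDAC9, 0.31 for HDAC8 and 0.25 for HDAC6. It was 0.11 for HDAC10, −0.16 for HDAC5, −0.48 for HDAC3 and −0.92 for HDAC2.

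The partners of the deacetylases were described by 8 lists with 68 genes, all of which had a row. In MDA-MB-231 cells 30 of the 68 fell and 11 rose, and in SKOV3 cells 20 fell and 3 rose. In both lines 17 fell and 3 rose, where 5.39% and 5.76% of all rows did. The share of rows above the floor band that were called in both lines was not taken. Nothing is therefore read from the counts in both lines, here or in the lists below. In the deposited values 38 fell and 4 rose in MDA-MB-231 cells, where 17.9% and 7.26% of all rows did. In SKOV3 cells 32 fell and 2 rose, where 14% and 3.83% of all rows did, and 28 fell and 2 rose in both lines. For the deposited values, shares among rows above the band or called in both lines were not taken. Nothing is therefore read from the deposited counts of partners, here or in the lists below. Since 55 of the 68 lay above the floor band, the quantile normalized counts are to be read beside the rows above the band, of which 25.1% fell and 33.2% rose in MDA-MB-231 cells and 15.4% fell and 17.4% rose in SKOV3 cells. The median log2 fold change of all rows was 0.0064 in MDA-MB-231 and 0.0066 in SKOV3 cells.

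The 6 genes of the NCoR complex, which carries HDAC3, had median log2 fold changes of −0.49 and −0.23. In MDA-MB-231 cells 4 fell and none rose, and in SKOV3 cells 2 of these fell. TBL1X, an exchange factor of the complex, gave −1.24 (adjusted p = 9.79e-05) and −1.12 (0.000609). NCOR1 (−0.38 and −0.14) and TBL1XR1 (−0.60 and −0.33), named after their values were seen, passed in MDA-MB-231 cells and not in SKOV3 cells. In the deposited values both passed in SKOV3 cells too (NCOR1 −0.24, adjusted p = 0.00511, and TBL1XR1 −0.63, adjusted p = 0.0375), and 5 of the 6 genes fell in each line.

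The NuRD complex is built on HDAC1 and HDAC2 and joins deacetylation to nucleosome remodelling. Of its 9 genes, 6 fell and 1 rose in MDA-MB-231 cells and 5 fell in SKOV3 cells, 4 of them in both, with medians of −0.40 and −0.37. GATAD2A, a p66 subunit, gave log2 fold changes of −2.08 (adjusted p = 4.89e-05) and −1.52 (0.000888), and CHD4, the remodelling ATPase, −1.09 (0.000752) and −1.24 (0.00149). MTA1 (−0.40 and −0.37) and GATAD2B (−0.46 and −0.37), named after their values were seen, were the other 2 that fell in both lines. The mean of GATAD2B lay in the floor band, where a change may be understated. MBD3, the 1 gene that rose in MDA-MB-231 cells (0.20), passed with quantile normalization and not in the deposited values (−0.18).

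The 15 genes of the SIN3 complex, also built on HDAC1 and HDAC2, held calls in both directions. In MDA-MB-231 cells 6 fell and 4 rose, in SKOV3 cells 3 fell and 1 rose, and the medians were −0.038 and 0.040. In the deposited values 8 fell and 1 rose in MDA-MB-231 cells, 5 fell and 1 rose in SKOV3 cells, and the medians were −0.25 and −0.081. SIN3A, the scaffold, gave −1.41 (adjusted p = 6.43e-05) and −1.18 (0.000589), and SAP130 −0.82 (1.11e-05) and −0.89 (2.45e-05). BRMS1, first described as a metastasis suppressor, rose in both lines (0.56, adjusted p = 0.000451, and 0.63, adjusted p = 0.000950). The third that fell in both was the histone-binding protein RBBP4 (−0.30 and −0.44), named after its values were seen and shared with NuRD, though counted here.

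Of the 6 CoREST genes 3 fell in both lines and 1 rose in MDA-MB-231 cells, with medians of −0.31 and −0.26. PHF21A, which reads unmethylated histone H3, gave −0.73 (adjusted p = 0.00217) and −1.10 (0.00102). KDM1A, the histone demethylase of the complex, measured under its older symbol AOF2, gave −0.63 (0.0151) and −0.74 (0.0216). RCOR3 (−0.76 and −0.42) was the third that fell and HMG20B (0.49 and 0.32) the gene that rose in MDA-MB-231 cells, both named after their values were seen.

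The proteins that bind or modify class IIa deacetylases were described last. Of the 4 MEF2 factors, which HDAC4 represses, MEF2D fell in both lines (−1.06, adjusted p = 0.000174, and −0.43, adjusted p = 0.0439), and the other 3 lay in the floor band with no call. Of the 7 14-3-3 genes, 5 fell and 1 rose in MDA-MB-231 cells and 1 fell in SKOV3 cells, with medians of −0.81 and −0.30 (−0.060 in SKOV3 cells in the deposited values). YWHAH fell in both lines (−1.20, adjusted p = 0.000124, and −0.83, adjusted p = 0.00293). In MDA-MB-231 cells YWHAB, YWHAG, YWHAQ and YWHAZ also fell, and YWHAE rose, all named after their values were seen. In the deposited values YWHAQ (−0.57, adjusted p = 0.0870) and YWHAE (0.094, adjusted p = 0.523) did not pass there.

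Of the 13 kinases of class IIa deacetylases, 4 fell and 1 rose in MDA-MB-231 cells and 4 fell in SKOV3 cells, 2 of them in both, with medians of −0.082 and −0.059. SIK3, a salt-inducible kinase, gave −1.11 (adjusted p = 3.13e-05) and −1.01 (0.000173), and PRKD2, a protein kinase D, −0.13 (0.0313) and −0.22 (0.00941). In the deposited values 9 and 7 of the 13 fell, against 17.9% and 14% of all rows, none rose, and the medians were −0.22 and −0.19. Most of the 13 lay above the floor band, and the share of such rows that fell was not taken in the deposited values. Among the 8 other deacetylases, SIRT1, an NAD-dependent deacetylase of histones and other proteins, fell in both lines (−0.47, adjusted p = 0.00457, and −0.40, adjusted p = 0.0308), and the mitochondrial SIRT5 rose in both (0.64, adjusted p = 0.000844, and 0.56, adjusted p = 0.00593). HDAC11, the class IV enzyme, rose in both (0.20, adjusted p = 0.0288, and 0.33, adjusted p = 0.00888) but passed in neither line in the deposited values (adjusted p = 0.526 and 0.768). SIRT4, named after its values were seen, rose in MDA-MB-231 cells (0.53) and did not pass in SKOV3 cells (0.22), and the medians of the list were 0.14 and 0.16 (−0.0044 and 0.016 in the deposited values).

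**Figure D5:**
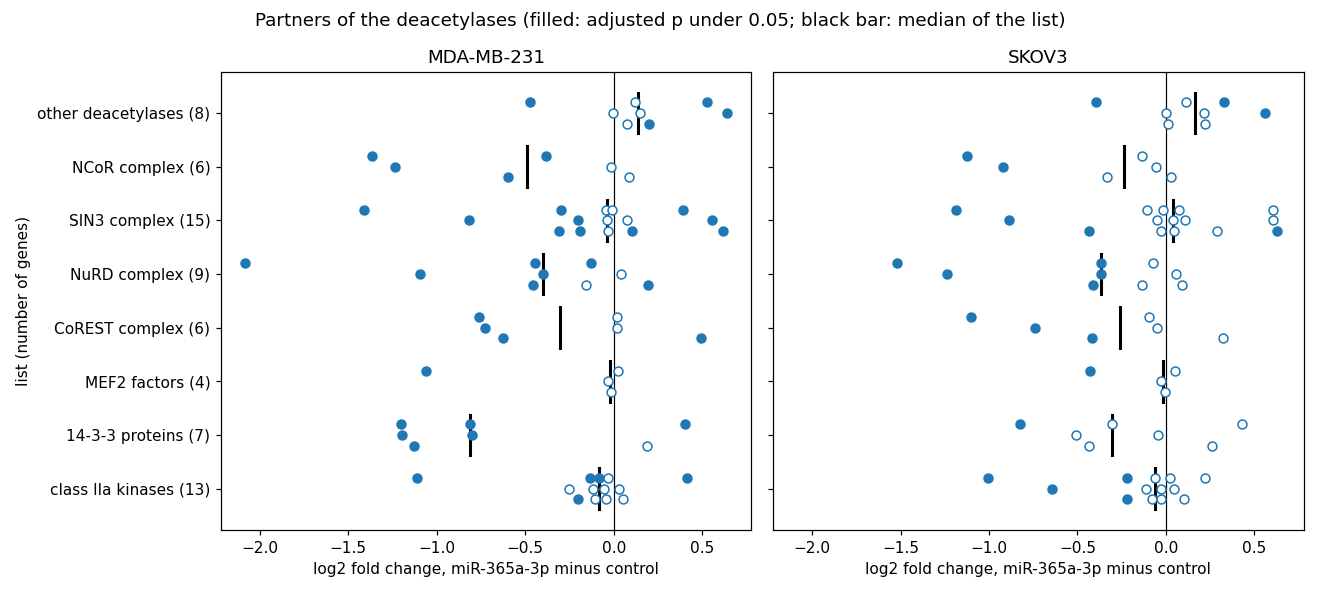
Log2 fold change with miR-365a-3p (horizontal axis) of the 68 partner genes in 8 lists (vertical axis, number of genes in brackets) in MDA-MB-231 (left) and SKOV3 (right), after quantile normalization. Filled points have an adjusted p under 0.05, and black bars are list medians. The 14-3-3 list has the lowest median in MDA-MB-231 cells (−0.81) and the NuRD list in SKOV3 cells (−0.37).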

How the data were processed

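Expression was measured on 11 arrays in 4 groups taken from the sample labels. The authors quantile normalized the arrays with lumi and deposited log2 values, 1 per gene symbol and array; the lumi version, the transformation, any background correction and the rule that joined several probes of a gene are not given in the sources used here, so a linear fold is approximate. The deposited columns did not share a distribution and were quantile normalized across arrays with limma 3.58.1 in R 4.3.3. All 31325 rows were fitted with 4 group means (lmFit, eBayes), with Benjamini-Hochberg adjustment over all rows and a threshold of 0.05. Single members and HDAC4 pairs were tested by exact permutation of treatment within lines (200 arrangements, two-sided). Scripts were tested on simulated data. Tables and plots were made with Python 3.11.15, NumPy 2.4.6, pandas 2.3.3 and matplotlib 3.10.9.

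The members and partner lists were chosen with earlier results of these data known. Named genes were all 10 members, from each partner list at most the 2 largest falls and 2 largest rises among genes called in both lines with the same sign, the 5 genes most correlated with HDAC4, and markers of the lines. Genes named outside this rule are marked as such, and some genes it covers are counted but not reported here. Alternatives were the deposited values, median centring, cyclic loess, only rows above the median of row means, each line alone, an intensity trend with robust priors, array weights, a replicate block and each array left out. Detection values were not used here.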

Additional observations from a re-analysis of the deposited data

How the results depend on the processing

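HDAC4 fell and passed the test in both lines under every alternative run, with log2 fold changes of −1.19 to −0.99 in MDA-MB-231 and −0.81 to −0.65 in SKOV3 cells when single arrays were left out. Measured against the other members on the same arrays, it fell relative to 8 of 9 with the deposited values and without any single array. Median centring cannot change a difference within an array. The number of members called in MDA-MB-231 cells went from 3 to 6 with the deposited values and 5 with median centring (3 to 4 without single arrays). In SKOV3 cells it went from 3 to 5 under both (1 to 4 without single arrays, HDAC4 being the only one called without either SKOV3 control). The difference between lines had 0 members, or 0 to 1 without single arrays. The comparison of controls went from 1 to 4 with array weights, 3 with cyclic loess, 3 with the deposited values, 4 with median centring, 2 with only rows above the median, and 1 to 2 without single arrays.

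Over single members, 728 alternatives gave 660 with the same sign and call, 31 with a call gained, 14 with a call lost and 23 with the sign turned, none of the last with a call. The sign turned for HDAC3 in MDA-MB-231 cells (−0.124 deposited, −0.0912 median centred), HDAC10 there (0.000675 and 0.0330; −0.0448 to 0.00415 without single arrays), HDAC6 there (0.00298, cyclic loess) and HDAC5 there (−0.0228 to 0.00812 without single arrays). In SKOV3 cells it turned for HDAC5 (−0.0131, deposited) and HDAC9 (0.00174, median centred). For the difference between lines it turned for HDAC3 (−0.0767 with array weights, −0.0493 to 0.105 without single arrays) and HDAC9 (−0.000793 with array weights, −0.0106 to 0.0114 without single arrays), and between controls for HDAC2 (−0.00216 to 0.251 without single arrays). The cause was not tested.

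Whether the replicate numbers pair the arrays was not settled. The deviations of equal-numbered arrays correlated at −0.13, 0.039 and 0.20 in MDA-MB-231 and 0.041 and −0.065 in SKOV3 cells. Those of unequal-numbered MDA-MB-231 arrays ran from −0.44 to 0.32. With 2 SKOV3 controls the deviations of the controls mirror each other, and groups this small cannot show or exclude a pairing. With the replicate block, where SKOV3 miR-365a-3p replicate 3 has no control partner and adds nothing, 4 members were called in MDA-MB-231 and 3 in SKOV3 cells. HDAC8 was then called in both (−0.12, adjusted p = 0.0404, and −0.25, adjusted p = 0.0201), HDAC7 in SKOV3 cells was not (adjusted p = 0.116), and the HDAC9 difference between lines was −0.000138. Members in the floor band (HDAC5, HDAC7, HDAC9 and HDAC10) or little above it (HDAC6 and HDAC8) limit what a missing call can show.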
